A study of Mus musculus with 6 samples.

Results

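The genes of 10 nuclear receptors were followed in the mouse liver after vertical sleeve gastrectomy (VSG), the removal of most of the stomach along its greater curvature. They were Ppara, Ppard, Pparg, Nr1h3, Nr1h4, Nr1i2, Nr1i3, Nr0b2, Rxra and Hnf4a, a fixed list of 10 lipid-sensing and xenobiotic nuclear receptors, out of 55385 genes in the count table. All 10 were found by their GENCODE M21 symbols, and all 10 passed the filter on low counts. Polyadenylated RNA was sequenced from the livers of 3 sham-operated (samples 1 to 3) and 3 VSG-operated mice (samples 4 to 6). Both groups were male mice, given by the labels as 6 to 8 weeks old, with a high-fat diet (HFD) for 10 weeks before the operation and for another 12 weeks after it. The age given is shorter than the diet, so it cannot be the age at which the livers were taken. The study's methods name its purchased mice as wild-type C57BL/6, with a wider range of ages. The labels give no mutant allele or drug for either group, and every library was made from whole liver tissue, so no library holds a single cell type.

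Nuclear receptors are transcription factors that change activity when a small fat-soluble molecule, such as a fatty acid, an oxysterol, a bile acid or a drug, binds inside them. Most of the receptors described here sit on DNA as a pair with RXRα (Rxra), and a bound ligand exchanges corepressors for coactivators at the genes they control. In the liver, PPARα (Ppara) governs fatty acid oxidation, LXRα (Nr1h3) cholesterol handling and lipogenesis, FXR (Nr1h4) and its partner SHP (Nr0b2) bile acid synthesis, and PXR (Nr1i2) and CAR (Nr1i3) the disposal of drugs and other foreign compounds, whereas HNF4α (Hnf4a) maintains hepatocyte identity.

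Of the 10 receptor genes, 2 fell after VSG, Pparg by 2.34-fold and Nr1i2 by 1.84-fold. The other 8 did not pass the test. These 2 calls out of 10, both lower, compare with 14.7% of all 14454 genes tested that were called, 7.87% lower (1137 genes) and 6.79% higher (981 genes). Scaling by total counts instead of TMM factors moved that split to 1512 genes lower and 486 higher. Groups did not overlap for these 2 members, against 39.7% of all genes tested, so non-overlap by itself was common in these libraries. The median log2 fold change of the 10 receptors was -0.43, against 0.03 for all genes tested. No member was called higher by edgeR, DESeq2, limma-voom or limma on log2(FPKM + 1), while DESeq2 called 1772 of all genes tested lower and 1516 higher. At an unadjusted edgeR p under 0.05, 2 members were lower and 0 higher, against 2454 and 2439 of all 14454 genes tested.

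Promoter sequences are shown for the 2 receptors that fell, and for Nr0b2 because its window is the only one with TCAAGG, the opening letters of a longer element. RefSeq (build GRCm38.p6) gave 15 windows of 250 bases upstream of a transcription start for the 10 genes. The classical nuclear receptor element is built from the hexamer AGGTCA, and TCAAGG is the first part of a longer element that ends in AGGTCA and is bound by monomers such as LRH-1. Both were searched on both strands, and capitals mark a match on either strand.
Nr1i2, chr16:38294825-38295074, minus strand: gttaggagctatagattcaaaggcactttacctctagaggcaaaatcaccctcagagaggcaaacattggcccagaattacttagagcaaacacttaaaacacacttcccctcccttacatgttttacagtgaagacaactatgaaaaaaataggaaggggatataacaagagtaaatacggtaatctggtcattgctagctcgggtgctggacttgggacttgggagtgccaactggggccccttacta
Nr0b2, chr4:133553126-133553375, plus strand: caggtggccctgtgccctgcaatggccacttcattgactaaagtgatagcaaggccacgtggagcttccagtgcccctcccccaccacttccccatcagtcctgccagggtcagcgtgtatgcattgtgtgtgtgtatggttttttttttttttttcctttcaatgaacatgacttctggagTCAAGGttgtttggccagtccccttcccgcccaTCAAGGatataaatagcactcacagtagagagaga
Pparg, last start, chr6:115421816-115422065, plus strand: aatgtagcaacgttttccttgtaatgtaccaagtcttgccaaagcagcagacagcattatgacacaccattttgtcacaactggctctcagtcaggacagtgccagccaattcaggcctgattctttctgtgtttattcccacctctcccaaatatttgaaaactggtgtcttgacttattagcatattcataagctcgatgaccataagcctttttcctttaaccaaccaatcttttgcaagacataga
AGGTCA was present in 4 of the 15 windows, and 14.0% of all 32851 promoter windows of this length held it. The Nr1i2 window and the window of the last Pparg start held neither hexamer, whereas Nr0b2 held TCAAGG at 68 and 35 bases upstream of its start, a motif of 12.5% of all windows. Since the Nr0b2 window held no AGGTCA, neither match was the whole longer element. Paired elements, which contain AGGTCA, were in none of the 15 windows. These were the direct repeat that PPAR pairs prefer (AGGTCANAGGTCA, in 0.0335% of all windows), the direct repeat that LXR pairs prefer (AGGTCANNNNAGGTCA, 0.0152%) and the inverted repeat that FXR prefers (AGGTCANTGACCT, 0.00609%). The stretches around the AGGTCA matches are shown next, since Pparg held one at each of its first and middle starts and the gene counts pool all 3 starts.
Pparg, first start, chr6:115361104-115361133: agccgccgcctcAGGTCAgagtcgccccgg
Pparg, middle start, chr6:115362328-115362348: agggacgcgaggAGGTCAaga
Rxra, chr2:27709232-27709261: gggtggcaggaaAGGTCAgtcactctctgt
Rxra, chr2:27709193-27709222: tagaaatgggtgTGACCTgagtaatggtca
Nr1h4, chr10:89506855-89506884: ccgtgtggcattTGACCTccagccagtctt
They are written along the strand of the gene, where TGACCT is AGGTCA on the other strand. In GENCODE M21 both Pparg stretches lie in untranslated exon sequence and the Rxra and Nr1h4 stretches in introns, whereas the window of the last Pparg start is intronic and those of Nr1i2 and Nr0b2 are intergenic. The matches lay 28 and 9 bases upstream of the Pparg starts, 48 and 87 bases upstream of an Rxra start and 214 bases upstream of the Nr1h4 start. A match of these letters was not tested as a binding site.

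The libraries were even in depth, with total counts from 22804397 to 24191778. Hepatocyte markers were abundant in all 6 libraries, with a summed level over 7 markers of 65431 to 101564 CPM (counts scaled to a common library size, with TMM factors) in sham and 51896 to 78102 CPM in VSG livers, and 0 of the 7 were called by edgeR or either limma fit, whereas DESeq2, like an unadjusted edgeR p under 0.05, gave 1 lower and 2 higher. Acute phase genes, which hepatocytes raise during inflammation, all rose (15 of 15 by edgeR, DESeq2 and limma-voom, 13 by limma on log2(FPKM + 1)), and their sum was 19789 to 21853 CPM in sham and 71358 to 145241 CPM in VSG livers, highest in VSG 4 and lowest of the VSG livers in VSG 5. Of the neutrophil markers 9 of 9 rose by edgeR and DESeq2, 3 by limma-voom and 6 by limma on log2(FPKM + 1) (sums of 7.17 to 21.5 CPM in sham and 137 to 1787 CPM after VSG), and of the macrophage markers 4 of 8 (345 to 730 CPM and 742 to 2165 CPM). Stellate cell markers summed to 690 to 995 CPM in sham and 375 to 631 CPM in VSG livers, with 1 of 7 called lower by edgeR and either limma fit (Reln by edgeR), and 5 lower by DESeq2 and at an unadjusted edgeR p under 0.05. Of the remaining lists, 0 of 6 endothelial and 1 of 5 cholangiocyte markers (Sox9, higher) were called by edgeR. The other 4 cholangiocyte markers had negative log2 fold changes, and the list summed to 57.7 to 253 CPM in sham and 73.4 to 200 CPM in VSG livers. Only 1 of 6 adipocyte (Adrb3, higher) and 1 of 5 exocrine pancreas markers (Cela1, lower) passed the filter on low counts, and both were called. Endothelial sums were 265 to 316 CPM in sham and 279 to 345 CPM in VSG livers. The part of these shifts in the receptor values was not tested. In whole tissue, fewer cells of a type and less RNA per cell cannot be told apart.

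**Figure D1:**
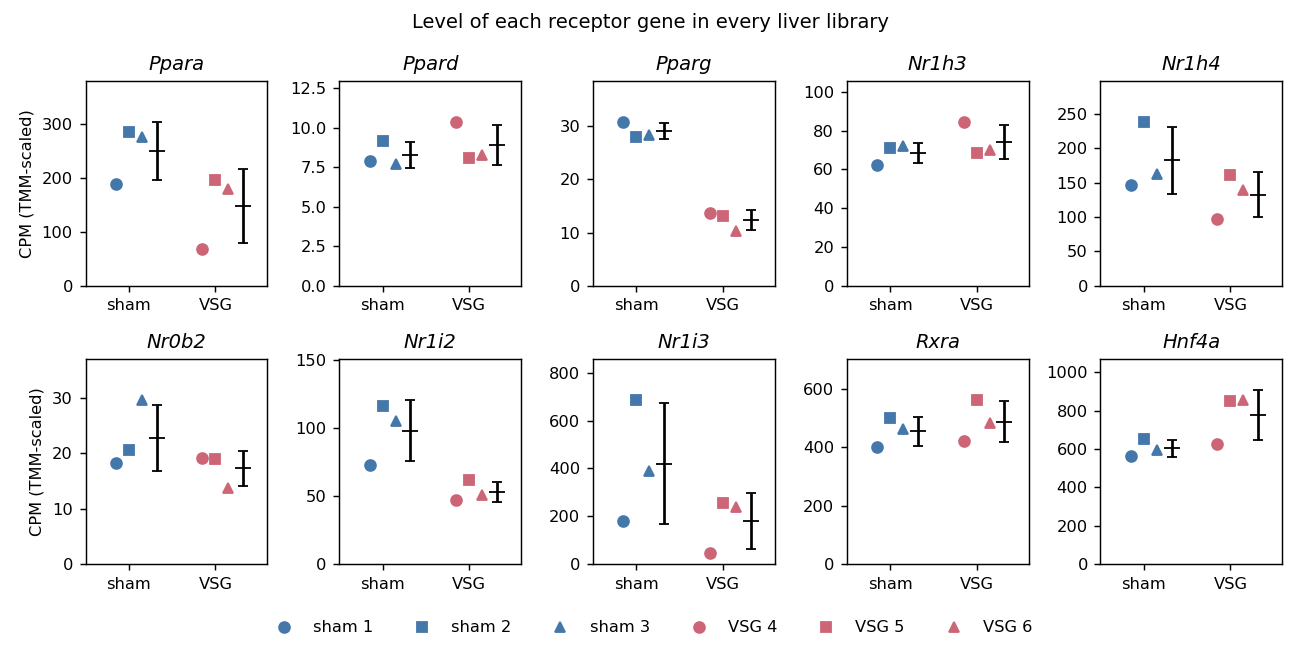
Level of each receptor gene in the 3 sham and 3 VSG liver libraries, in TMM-scaled CPM on linear axes that start at 0. Symbols are single libraries, and black bars are the group mean ± SD (n = 3). Only for Pparg and Nr1i2 do all VSG livers lie below all sham livers.

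Per gene length, the receptors covered a wide range of levels in sham livers. Hnf4a was the most abundant at 125 ± 9.04 FPKM (counts per gene length and library size, mean ± SD, n = 3), followed by Nr1i3 at 94.8 ± 57.4, Nr1h4 at 79.3 ± 21.3, Rxra at 72.2 ± 7.85 and Ppara at 65.1 ± 14.0 FPKM. Within these 5 genes, each overlapped the next in the order. Nr1i2 (38.4 ± 8.82 FPKM), Nr1h3 (27.2 ± 2.11 FPKM) and Nr0b2 (20.1 ± 5.29 FPKM) formed the next run, in which neighbours also overlapped, except that Nr1i2 and Nr1h3 did not in TPM, which scales each library by its summed length-corrected counts. Pparg at 9.84 ± 0.511 FPKM and Ppard at 1.10 ± 0.108 FPKM were each separate from every other member.

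The order changed at few places after VSG. Hnf4a, at 161 ± 27.3 FPKM, then lay above all other members without overlap. Rxra (77.4 ± 11.3 FPKM), Nr1h4 (57.5 ± 14.1 FPKM), Nr1i3 (40.7 ± 26.6 FPKM), Ppara (38.5 ± 18.0 FPKM) and Nr1h3 (29.5 ± 3.52 FPKM) overlapped from neighbour to neighbour. Nr1i2, at 20.9 ± 2.89 FPKM, was below Nr1h3 in the VSG livers and above it in the sham livers by group mean. Pparg was at 4.20 ± 0.635 FPKM and Ppard at 1.19 ± 0.168 FPKM.

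**Figure D2:**
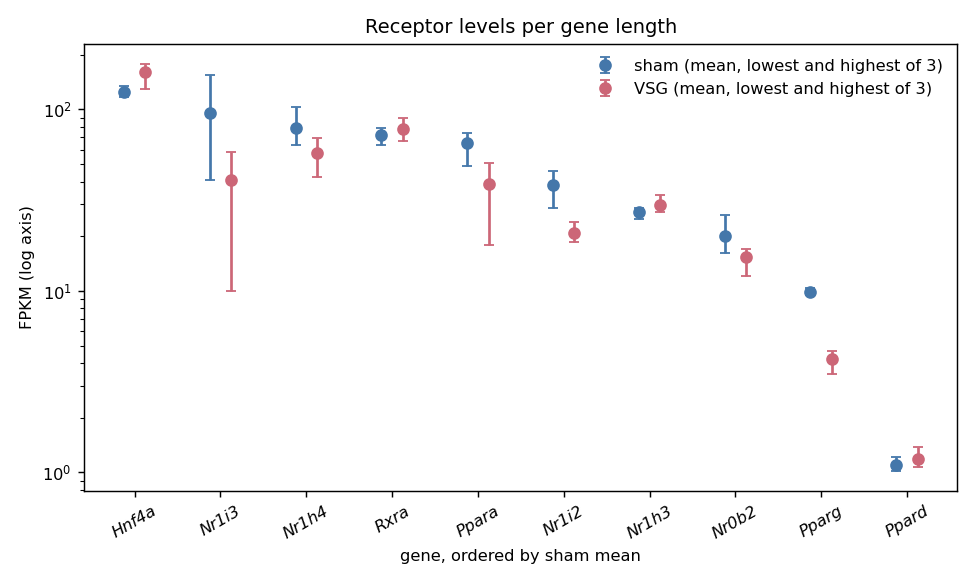
Mean FPKM of each receptor gene in sham and VSG livers on a log axis, ordered by the sham mean, with bars from the lowest to the highest of 3 libraries. Hnf4a is at the top and Ppard at the bottom in both groups, and Nr1i3 and Ppara have the longest bars after VSG.

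Among the PPARs, Pparg fell, whereas the fitted changes of Ppara and Ppard did not pass the test. Pparg (ENSMUSG00000000440.12, chr6:115360951-115490399, mm10) encodes PPARγ, the fat-storage receptor of adipocytes, which is also raised in fatty livers. It was at 30.8, 28.1 and 28.3 CPM in sham 1, 2 and 3 and at 13.8, 13.2 and 10.3 CPM in VSG 4, 5 and 6. The highest VSG liver was thus below the lowest sham liver, with little spread in either group. Its log2 fold change was -1.23 ± 0.134 (SE, 95% interval -1.55 to -0.91, edgeR adjusted p = 0.00692). Pparg passed the threshold under all 14 alternative settings, with log2 fold changes from -1.37 to -1.07. The adipocyte markers Adipoq, Lep, Plin1 and Retn had 3 counts or fewer in every library. Of the other 2 markers on that list, Adrb3 was higher after VSG, and Cfd, which did not pass the filter on low counts, had 2, 66 and 42 counts in sham 1, 2 and 3 and 0, 4 and 4 counts in VSG 4, 5 and 6. The part of adipocyte RNA in the Pparg values was not tested.

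Ppara (ENSMUSG00000022383.13, chr15:85734983-85802819) encodes PPARα, the fasting receptor that turns on fatty acid oxidation. It was at 188, 285 and 276 CPM in sham 1, 2 and 3 and at 68.8, 195 and 179 CPM in VSG 4, 5 and 6. VSG 4 was far below all others, and VSG 5 lay above sham 1, so the groups overlapped. Its log2 fold change was -0.76 ± 0.389 (95% interval -1.68 to 0.17, edgeR adjusted p = 0.217), an interval that includes the change of Pparg. Across the alternatives it ran from -1.03 to -0.31. VSG 4 was also the library with the lowest hepatocyte and the highest acute phase sum. Its hepatocyte sum was mostly Alb (35829 of 51896 CPM). Alb, Apoa1, Ttr and Asgr1 were lowest in VSG 4, Cps1 was within the sham range, and Ahsg and Serpina1a were above it. The part of these differences in the Ppara value of VSG 4 was not tested.

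Ppard (ENSMUSG00000002250.16, chr17:28232700-28301474) encodes PPARδ, a fatty acid receptor present in most tissues. It was at 7.90, 9.18 and 7.67 CPM in sham 1, 2 and 3 and at 10.4, 8.08 and 8.30 CPM in VSG 4, 5 and 6, with the groups interleaved. This gave a log2 fold change of 0.11 ± 0.154 (edgeR adjusted p = 0.633), and its 95% interval, -0.26 to 0.48, excluded a fall of the size seen in Pparg.

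**Figure D3:**
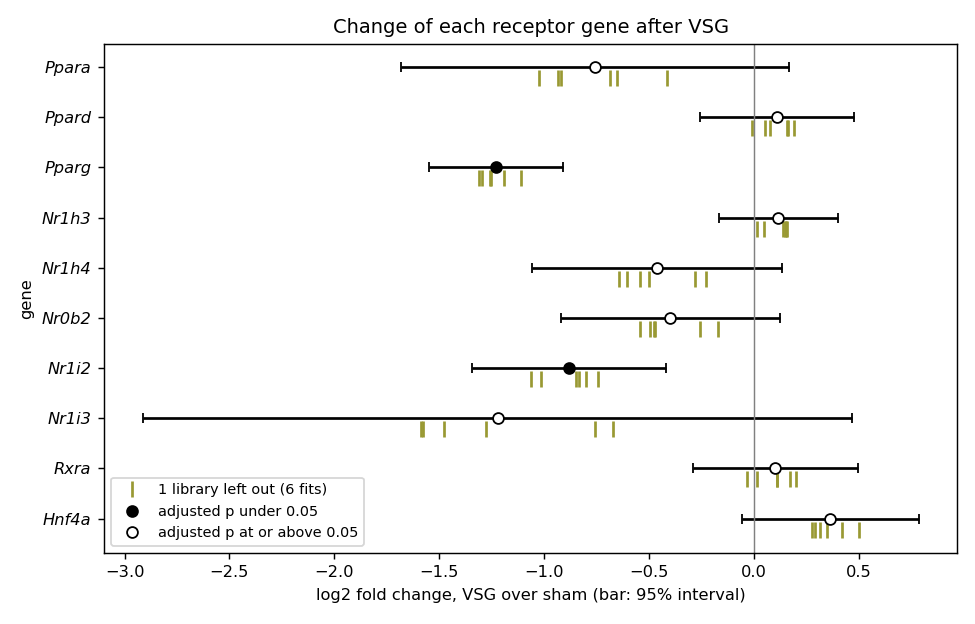
Log2 fold change of each receptor gene, VSG over sham, from edgeR with its 95% interval (black), and the fits that leave out 1 library each (short coloured lines). Filled symbols mark an adjusted p under 0.05, which Pparg (-1.23) and Nr1i2 (-0.88) reached. The interval of Nr1i3, -2.91 to 0.47, is the widest.

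Genes known to respond to PPARγ in fatty livers had the lowest median of the 7 target lists. Of 9 such genes, 7 fell and 0 rose, with a median log2 fold change of -3.04 against 0.03 for all genes, and 2 did not pass the test. Cidec, which coats and fuses lipid droplets, was at 69.5 to 125 CPM across sham and 0.477 to 1.63 CPM across VSG livers (log2 fold change -6.47 ± 0.44, adjusted p = 0.00177, edgeR). Mogat1, a triglyceride-building enzyme, was at 5.69 to 9.35 CPM across sham and 0.0954 to 0.226 CPM across VSG livers (log2 fold change -5.68 ± 0.37, adjusted p = 0.00177). For Mogat1, the VSG values lay around the floor of 3 counts (0.128 to 0.143 CPM across the VSG livers, on the same TMM scale). Cd36, the fatty acid transporter, was at 433 to 518 CPM across sham and 120.2 to 181 CPM across VSG livers (log2 fold change -1.80 ± 0.20, adjusted p = 0.00732). These 3 genes passed under every alternative in which they were tested.

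Other genes of that list were less firm. Aqp7, a glycerol channel, was at or under the floor in every VSG liver and at least 25.1-fold lower than in sham livers by group mean against a floor of 3 counts, but its adjusted p rose to 0.0593 without VSG 6. Cidea, a relative of Cidec, was at 1.03, 11.8 and 15.2 CPM in sham 1, 2 and 3 and at or under the floor in the VSG livers, at least 68.7-fold lower. Its call was lost without sham 2 (adjusted p = 0.0553), sham 3 (0.0876), VSG 4 (0.0673), VSG 6 (0.0918) or both sham 2 and VSG 4 (0.109), and with limma-voom (0.108) or limma on log2(FPKM + 1) (0.0587). Fabp4, an adipocyte and macrophage fatty acid carrier, was at 22.2 to 26.5 CPM across sham and 16.6 to 24.0 CPM across VSG livers (log2 fold change -0.19 ± 0.16, adjusted p = 0.429). The number of the 9 genes called was 4 without sham 3 and 3 without VSG 6.

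The PPARα target list contains enzymes of peroxisomal and mitochondrial fatty acid oxidation. All 23 had a negative log2 fold change (6885 of the 14454 genes tested did), with a median of -0.87, and 6 of 23 passed the test, against 14 with DESeq2 and 12 with total counts. Plin2, a lipid droplet coat protein, was at 666 to 766 CPM across sham and 241 to 300.3 CPM across VSG livers (log2 fold change -1.47 ± 0.15, adjusted p = 0.00635) and was called under all 14 alternatives. Pdk4, which holds pyruvate back from oxidation, was at 18.8 to 40.1 CPM across sham and 4.58 to 6.88 CPM across VSG livers (log2 fold change -2.28 ± 0.35, adjusted p = 0.0142). Pex11a, a peroxisome division factor, was at 167 to 376 CPM across sham and 46.4 to 68.0 CPM across VSG livers (log2 fold change -2.26 ± 0.32, adjusted p = 0.0115). Acaa1b, a peroxisomal thiolase, was at 767 to 1015 CPM across sham and 136 to 345 CPM across VSG livers (log2 fold change -2.01 ± 0.36, adjusted p = 0.0200).

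The textbook PPARα targets Cyp4a14 and Fgf21 did not pass. Cyp4a14, a fatty acid hydroxylase, spread from 507 to 2482 CPM among sham livers and from 33.5 to 1438 CPM among VSG livers (log2 fold change -1.21 ± 1.22, adjusted p = 0.512), a wide range within each group. Fgf21, a fasting hormone, was at 7.17 to 8.38 CPM across sham and 1.38 to 12.9 CPM across VSG livers (log2 fold change -0.20 ± 0.64, adjusted p = 0.851). Without sham 3 or without VSG 6, only 1 of the 23 genes was called, when 159 and 210 of all genes were. Leaving out VSG 5 gave 11 of the 23 and 2732 of all genes, against 2118 of all genes with every library. Acaa1b missed the threshold without sham 2 (adjusted p = 0.0519), as did Pex11a and Acaa1b without sham 3 (0.0604 and 0.0899) and Pdk4, Pex11a and Acaa1b without VSG 6 (0.0695, 0.0576 and 0.0855). Pdk4 was at the threshold without sham 3.

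None of the 3 oxysterol and bile acid receptor genes was called by edgeR, DESeq2 or either limma fit, and 0 had an unadjusted edgeR p under 0.05. Nr1h3 (ENSMUSG00000002108.10, chr2:91184061-91202834), which encodes the oxysterol receptor LXRα, was at 62.4, 71.0 and 72.1 CPM in sham 1, 2 and 3 and at 84.5, 68.4 and 70.1 CPM in VSG 4, 5 and 6. VSG 4 was above all sham livers, and VSG 5 and 6 were within their range. This was a log2 fold change of 0.12 ± 0.119 (95% interval -0.17 to 0.40, edgeR adjusted p = 0.512). Nr1h2, which encodes the more widely expressed LXRβ, was at 24.2 to 26.6 CPM across sham and 22.8 to 25.5 CPM across VSG livers (log2 fold change -0.07 ± 0.09, adjusted p = 0.636).

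LXR targets moved in both directions. Of 11, 4 fell, 1 rose and 6 did not pass, with a median log2 fold change of -0.19. The 4 that fell belong to fatty acid synthesis and phospholipid remodelling. Scd1, the stearoyl-CoA desaturase, was at 14538 to 18468 CPM across sham and 1517 to 3384 CPM across VSG livers (log2 fold change -2.77 ± 0.39, adjusted p = 0.0114). Fasn, the fatty acid synthase, was at 225 to 319.6 CPM across sham and 76.0 to 145 CPM across VSG livers (log2 fold change -1.17 ± 0.27, adjusted p = 0.0338). Srebf1, the master factor of lipogenesis, was at 133 to 151 CPM across sham and 77.2 to 94.2 CPM across VSG livers (log2 fold change -0.78 ± 0.12, adjusted p = 0.0142). Lpcat3, which puts unsaturated chains into phospholipids, was at 125 to 142 CPM across sham and 58.5 to 97.3 CPM across VSG livers (log2 fold change -0.77 ± 0.19, adjusted p = 0.0416).

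The sterol exporters in the same list differed from each other. Abca1, the cholesterol efflux pump, rose and was at 311 to 340.3 CPM in sham and 505 to 943 CPM after VSG (log2 fold change 1.14 ± 0.24, adjusted p = 0.0274). Abcg5, which pumps sterols into bile, was at 99.9 to 108 CPM across sham and 63.2 to 84.6 CPM across VSG livers (log2 fold change -0.45 ± 0.13, adjusted p = 0.0636), and passed with DESeq2 (0.0168) or total counts (0.0309). Abca1 is also expressed in macrophages, of whose markers 4 of 8 were higher after VSG, and the part of macrophage RNA in the Abca1 values was not tested. The Abca1 call was lost without sham 1 (adjusted p = 0.0673), sham 2 (0.0771), sham 3 (0.123) or VSG 6 (0.0931). Fasn and Lpcat3 missed the threshold without sham 1 (0.0568 and 0.0795) or sham 2 (0.0886 and 0.110), and Lpcat3 without VSG 4 (0.0660). Without sham 3 or VSG 6 none of the 11 genes was called in either direction.

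Nr1h4 (ENSMUSG00000047638.15, chr10:89454234-89533585) encodes FXR, the bile acid receptor. It was at 147, 238 and 163 CPM in sham 1, 2 and 3 and at 97.2, 161 and 139 CPM in VSG 4, 5 and 6. Sham 2 was the highest and VSG 4 the lowest, while VSG 5 was above sham 1. Its fitted log2 change was -0.46 ± 0.251 (95% interval -1.06 to 0.13, edgeR adjusted p = 0.238), and it was -0.04 without sham 2 and VSG 4 together.

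Nr0b2 (ENSMUSG00000037583.2, chr4:133553376-133556536) encodes SHP, a receptor with no DNA-binding domain that FXR induces and that represses bile acid synthesis. It was at 18.3, 20.5 and 29.6 CPM in sham 1, 2 and 3 and at 19.1, 19.0 and 13.7 CPM in VSG 4, 5 and 6. VSG 4 and 5 lay above sham 1, and sham 3 was the highest. The fitted log2 change was -0.40 ± 0.220 (95% interval -0.92 to 0.12, edgeR adjusted p = 0.243).

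Genes that FXR raises did not pass the test. Of 6 on this list, Nr0b2 itself among them, 5 were tested and 0 were called by edgeR, DESeq2, limma-voom or limma on log2(FPKM + 1), and 0 had an unadjusted edgeR p under 0.05. Slc51a did not pass the filter on low counts. Abcb11, the bile salt export pump, was at 298 to 487 CPM across sham and 376 to 494 CPM across VSG livers (log2 fold change 0.22 ± 0.22, adjusted p = 0.491), and Slc51b, a basolateral bile acid transporter subunit, was at 0.548 to 2.10 CPM across sham and 0.299 to 0.995 CPM across VSG livers (log2 fold change -1.10 ± 0.63, adjusted p = 0.256).

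Genes that FXR and SHP repress were not called by edgeR either. Of the 3 genes on this list, Cyp7a1 and Cyp8b1 are described here, and Slc10a1, the bile acid uptake transporter, which was named after its values were seen, had a log2 fold change of -0.29 ± 0.51 (adjusted p = 0.710). Cyp7a1, the rate-limiting enzyme of bile acid synthesis, was at 208, 462 and 162 CPM in sham 1, 2 and 3 and at 29.2, 121 and 115 CPM in VSG 4, 5 and 6 (log2 fold change -1.65 ± 0.61, adjusted p = 0.110). Cyp8b1, the sterol 12α-hydroxylase, was at 142, 553 and 270 CPM in sham and at 17.6, 128 and 60.3 CPM after VSG (log2 fold change -2.23 ± 0.77, adjusted p = 0.0952). In both genes, every VSG liver was below every sham liver, and sham 2 and VSG 4 stood at the ends. Of the 3 genes, 0 were called by edgeR or either limma fit, whereas Cyp7a1 and Cyp8b1, 2 of the 3, were lower by DESeq2 and at an unadjusted edgeR p under 0.05. Cyp8b1 also passed with no filter beyond 1 count (adjusted p = 0.0443) or without VSG 5 (0.0444).

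The xenobiotic receptors are PXR and CAR, which detect drugs, steroids and bile acids and switch on cytochromes P450 and transporters. Nr1i2 (ENSMUSG00000022809.4, chr16:38248323-38294824), which encodes PXR, was at 72.9, 116 and 105 CPM in sham 1, 2 and 3 and at 47.3, 61.5 and 50.9 CPM in VSG 4, 5 and 6. Every VSG liver was below every sham liver, with VSG 5 and sham 1 closest to each other. The estimate was a log2 fold change of -0.88 ± 0.195 (95% interval -1.34 to -0.42, edgeR adjusted p = 0.0322). The call held under 9 of 14 alternatives and was lost without sham 2 (adjusted p = 0.0835), sham 3 (0.125), VSG 4 (0.0776), VSG 6 (0.114) or both sham 2 and VSG 4 (0.122), with log2 fold changes between -1.06 and -0.66 over the 14.

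Nr1i3 (ENSMUSG00000005677.14, chr1:171213970-171220701), which encodes CAR, was the most variable receptor. It was at 181, 686 and 389 CPM in sham 1, 2 and 3 and at 44.3, 256 and 238 CPM in VSG 4, 5 and 6. The highest liver was 3.79 times the lowest among sham and 5.78 times among VSG animals, and sham 1 lay below VSG 5 and 6. The fitted log2 fold change, -1.22, was as large as that of Pparg, but its standard error was 0.711 (95% interval -2.91 to 0.47, edgeR adjusted p = 0.265). It ran from -1.59 to -0.21 over the 14 alternatives and was -0.21 without sham 2 and VSG 4.

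Of the 13 PXR and CAR targets, 5 fell and 0 rose, against 9 lower with DESeq2 and 8 with no filter beyond 1 count. Over all genes, 1137 of 14454 were lower by edgeR, 1772 by DESeq2, and 1293 of 27530 with no filter beyond 1 count. All 13 had a negative log2 fold change (6885 of the 14454 genes tested did), with a median of -1.64. Abcb1a, the P-glycoprotein drug efflux pump, was at 19.3 to 24.1 CPM across sham and 2.43 to 4.16 CPM across VSG livers (log2 fold change -2.84 ± 0.23, adjusted p = 0.00273) and was called under all 14 alternatives. Cyp3a11, the main drug-oxidising cytochrome P450 of the PXR response, was at 1524 to 2159.7 CPM across sham and 130.5 to 481 CPM across VSG livers (log2 fold change -2.77 ± 0.51, adjusted p = 0.0216). Slco1a4, an organic anion uptake transporter, was at 90.3 to 156 CPM across sham and 9.14 to 37.1 CPM across VSG livers (log2 fold change -2.54 ± 0.50, adjusted p = 0.0243). Cyp2c55, another cytochrome P450, was at 1.87 to 3.51 CPM across sham and 0.0905 to 0.427 CPM across VSG livers (log2 fold change -3.29 ± 0.50, adjusted p = 0.0142). Abcc3, a basolateral exporter of conjugates that was named after its values were seen, was at 442 to 628 CPM across sham and 163 to 204 CPM across VSG livers (log2 fold change -1.64 ± 0.18, adjusted p = 0.00725).

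Cyp2b10, the classical CAR target, had most of its level in a single sham liver. It was at 1.14, 59.0 and 2.09 CPM in sham 1, 2 and 3 and had 0 counts in all VSG livers (edgeR adjusted p = 0.0945). It passed the threshold without sham 2 (0.0335), without both sham 2 and VSG 4 (0.0342) and with no filter beyond 1 count (0.0254). The sham mean was at least 153-fold above the floor of 3 counts in the VSG livers, and sham 2, which also had the highest Nr1i3, carried most of it. Without sham 3 or VSG 6, 2 of the 13 targets were called. Cyp3a11 and Slco1a4 missed the threshold without sham 2 (adjusted p = 0.0531 and 0.0667), and Cyp3a11, Slco1a4 and Cyp2c55 did so without sham 3 (0.0911, 0.0972 and 0.0699) or VSG 6 (0.0882, 0.0976 and 0.0677).

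**Figure D4:**
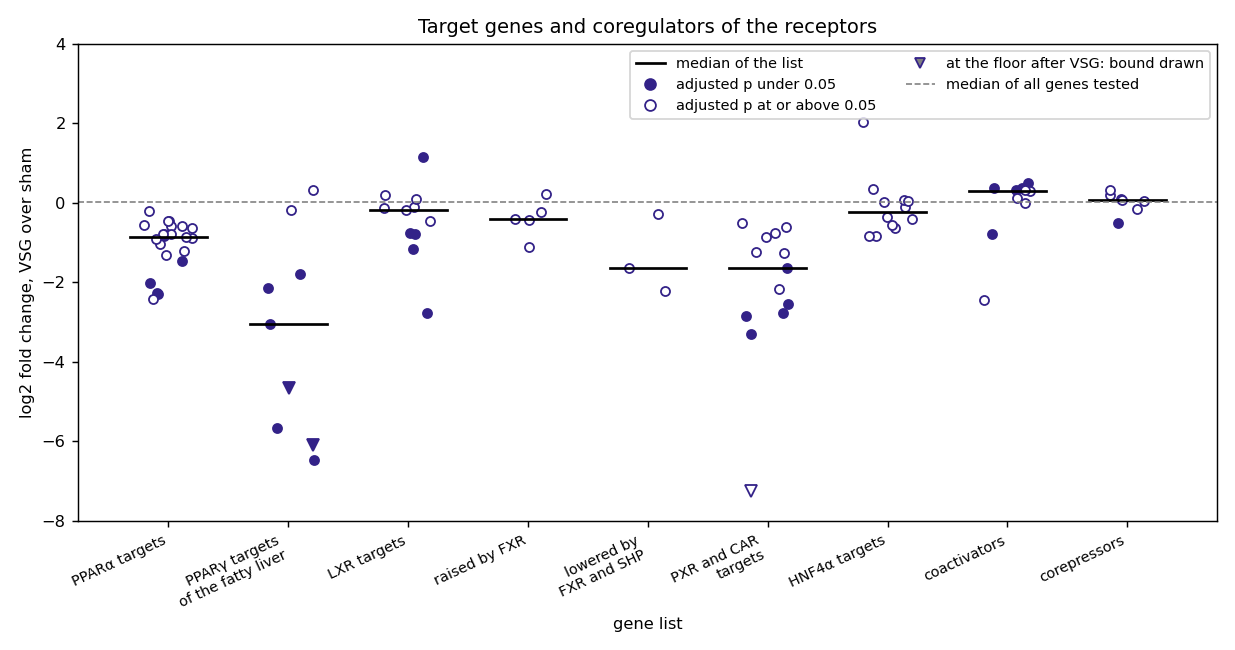
Log2 fold change, VSG over sham, of each tested gene in the target and coregulator lists, with the list median as a black line and the median of all genes tested (0.03) as a dashed line. Filled symbols mark an edgeR adjusted p under 0.05, and triangles are bounds for genes at the floor of 3 counts after VSG. The PPARγ list has the lowest median (-3.04), and all tested PPARα and PXR and CAR targets lie below 0.

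The shared partner Rxra and the hepatocyte regulator Hnf4a did not pass the test. Rxra (ENSMUSG00000015846.15, chr2:27676440-27762957), which encodes the partner of the receptors above, was at 402, 499 and 463 CPM in sham 1, 2 and 3 and at 420, 562 and 482 CPM in VSG 4, 5 and 6. The groups were interleaved. The log2 fold change was 0.10 ± 0.165 (edgeR adjusted p = 0.689), and the 95% interval, -0.29 to 0.49, excluded a fall of the size of Nr1i2. Rxrb was at 20.3 to 23.1 CPM across sham and 20.6 to 26.5 CPM across VSG livers (log2 fold change 0.13 ± 0.12, adjusted p = 0.502). The related Rxrg was at 4.82 to 6.02 CPM across sham and 0.995 to 2.74 CPM across VSG livers (log2 fold change -1.37 ± 0.37, adjusted p = 0.0526), with all VSG livers below all sham livers. It passed the threshold under 7 of 14 alternatives, among them DESeq2 (0.00562), limma-voom (0.0436), limma on log2(FPKM + 1) (0.0348) and total counts (0.0386), with adjusted p-values up to 0.137 over the 14.

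Hnf4a (ENSMUSG00000017950.16, chr2:163506808-163572910) encodes HNF4α, the receptor on which much of the hepatocyte programme depends. It was at 564, 650 and 593 CPM in sham 1, 2 and 3 and at 624, 850 and 854 CPM in VSG 4, 5 and 6. VSG 5 and 6 lay above all sham livers and VSG 4 within their range. The log2 fold change was 0.37 ± 0.177 (95% interval -0.05 to 0.79, edgeR adjusted p = 0.194), and it stayed positive under all 14 alternatives (0.23 to 0.56).

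None of the 12 HNF4α targets was called by edgeR or either limma fit, with a median log2 fold change of -0.22. At an unadjusted edgeR p under 0.05, 3 were lower (Apoa2, Apoc3 and Ttr) and 1 was higher (Cyp7b1), and DESeq2 called these 4 genes, which are named because of these values. Of all 14454 genes tested, 2454 were lower and 2439 higher at that unadjusted p, and DESeq2 called 3288. Apoc3, an inhibitor of triglyceride clearance, was at 609 to 809.9 CPM across sham and 351 to 547 CPM across VSG livers (log2 fold change -0.64 ± 0.22, adjusted p = 0.0910), and also passed with total counts (0.0476) or without VSG 5 (0.0374). Mttp, which loads lipid onto very-low-density lipoproteins, was at 370.4 to 532 CPM across sham and 268 to 385 CPM across VSG livers (log2 fold change -0.41 ± 0.20, adjusted p = 0.203).

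The livers of a group differed from each other, and their order depended in part on the scaling. Among sham livers on the TMM scale, sham 1 was the lowest in 8 of the 10 receptor genes and sham 2 the highest in 7, but with scaling by total counts sham 1 was the lowest in 5, sham 2 was the highest in 2 and sham 3 was the highest in 6. Among VSG livers on the TMM scale, VSG 4 was the lowest in 6 and the highest in the other 4, which were Ppard, Pparg, Nr1h3 and Nr0b2, against 5 and 3 by total counts. In Nr1i3, VSG 4 was 2.76 below and sham 2 was 1.20 above the mean of all 6 livers on the log2 scale. In Ppara, VSG 4 was 1.53 below it. Over the 3 VSG livers, Ppara, Nr1h4, Nr1i2, Nr1i3 and Rxra had the order VSG 4, VSG 6, VSG 5 from lowest to highest, and the acute phase sum had the opposite order, as did Ppard and Nr1h3, with 3 livers only and no test. By total counts Ppara, Nr1h4, Nr1i3, Rxra and the acute phase sum kept their order, whereas VSG 6 was then the lowest in Nr1i2, Ppard and Nr1h3.

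**Figure D5:**
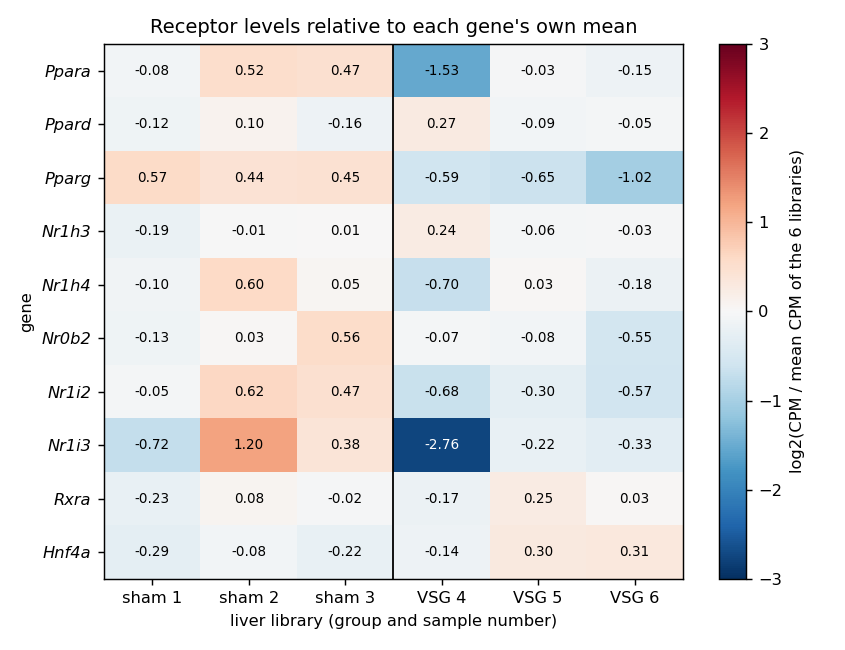
Log2 ratio of each receptor's CPM to its own mean over the 6 liver libraries, red above and blue below the mean, with the value printed in each cell. The bluest cells are Nr1i3 and Ppara in VSG 4 (-2.76 and -1.53), and the reddest is Nr1i3 in sham 2 (1.20).

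Coregulators, the proteins through which the receptors act on transcription, were followed as 2 lists. Of 10 coactivators, 4 rose and 1 fell, with a median log2 fold change of 0.31. The lowest log2 fold change was that of Lpin1, named after its values were seen, which was not called (-2.43 ± 0.66, adjusted p = 0.0532). It was at 51.0, 399.5 and 200.5 CPM in sham 1, 2 and 3 and at 35.5 to 47.9 CPM across VSG livers. Ppargc1a, which encodes PGC-1α, the coactivator of PPARα and HNF4α in fasting, fell and was at 17.0 to 24.8 CPM in sham and 9.82 to 13.7 CPM after VSG (log2 fold change -0.79 ± 0.19, adjusted p = 0.0371). Ncoa6 was at 39.0 to 43.1 CPM across sham and 56.7 to 60.1 CPM across VSG livers (log2 fold change 0.50 ± 0.08, adjusted p = 0.0170). The acetyltransferases Crebbp (log2 fold change 0.38 ± 0.10, adjusted p = 0.0435) and Ep300 (log2 fold change 0.37 ± 0.09, adjusted p = 0.0393) and the Mediator subunit Med1 (log2 fold change 0.33 ± 0.08, adjusted p = 0.0429) were also higher. None of these 4 rises was called with scaling by total counts (Ncoa6 0.0981, Crebbp 0.265, Ep300 0.212 and Med1 0.371, as adjusted p). Crebbp, Ep300 and Med1 also missed the threshold with no filter beyond 1 count (0.109, 0.128 and 0.155) and with limma on log2(FPKM + 1) (0.0669, 0.0513 and 0.0578), and Med1 with RLE size factors (0.0502).

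Of 7 corepressors, 1 passed the test. Hdac3, the histone deacetylase of the NCoR complex, fell and was at 43.8 to 51.3 CPM in sham and 32.7 to 35.3 CPM after VSG (log2 fold change -0.50 ± 0.09, adjusted p = 0.0219). The calls of Crebbp, Ep300 and Med1 were lost when any 1 library was left out, with adjusted p-values from 0.0580 to 0.172. Ncoa6 missed the threshold without sham 3 (0.0937) or VSG 6 (0.0741), as did Hdac3 (0.103 and 0.0887), which also missed it without sham 2 (0.0662). Ppargc1a missed it without sham 2 (0.0969), sham 3 (0.131), VSG 4 (0.0776) or VSG 6 (0.0907).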

How the data were processed

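The authors deposited raw read counts per gene for 6 liver libraries. Per the submitters' processing notes and the study's methods, reads were checked with FastQC 0.10.1, aligned to mm10 with STAR 2.6.0 and counted with featureCounts (2.0.3 in the processing notes, another release in the methods), from strand-specific polyadenylated libraries. The strand option, the annotation release and the handling of reads shared between genes are not given in the sources used here, so overlapping and antisense genes are uncertain. The deposited table also held the exon length of each gene, used only for FPKM and TPM. Of 55385 genes, 55144 were matched to GENCODE M21 symbols. After a filterByExpr filter with a minimum count of 10 and a minimum total of 15, 14454 genes entered the quasi-likelihood test of edgeR 4.0.16 (R 4.3.3), with TMM factors of 0.897 to 1.15 and no term but group. Benjamini-Hochberg adjustment ran over these 14454 genes. Unless another tool is named, every adjusted p comes from this fit. The standard error is the size of the log2 fold change divided by the square root of F, and 95% intervals are unadjusted. With 3 libraries against 3, a two-sided exact permutation test cannot go below 0.1, so none was used. Each library is labelled as a separate sample, and p-values measure the spread between these samples. The floor of 3 counts covers counting error only. Alternatives were DESeq2 1.42.0, limma-voom and limma (3.58.1) on log2(FPKM + 1), RLE factors, total counts, other filters, each library left out, and sham 2 with VSG 4 left out, the last chosen after seeing the data. The receptors, target lists and marker lists were chosen with earlier results of these data known. Named genes were the 10 receptors, up to 4 genes in each direction per list with the largest called change, and a short set of related receptors and textbook targets. Promoter windows came from RefSeq (GRCm38.p6). Of 8 hepatocyte marker symbols, 7 were matched, and the other had no match in the table and was not analysed here. Some genes that this rule would name are not reported here.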

Additional observations from a re-analysis of the deposited data

How the results depend on the processing

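No paired analysis was possible because the sham samples carry the numbers 1 to 3 and the VSG samples 4 to 6, so no number is shared. Pparg passed under all 14 alternatives, and the 8 receptors that were not called stayed so under all 14. The number of receptors called was 2 under every tool, scaling and filter and 1 to 2 with 1 library left out, where Nr1i2 had log2 fold changes of -1.06 to -0.74. Genes called numbered 2118, 3288 with DESeq2 and 159 to 2732 with 1 library left out. With 1 library left out, the calls ranged from 0 to 8 (lower) and 0 to 3 (higher) for other nuclear receptors, 0 to 2 (lower) and 0 to 1 (higher) for coactivators, 0 to 1 for corepressors, 1 to 11 for PPARα targets, 3 to 7 for PPARγ targets, 0 to 4 (lower) and 0 to 1 (higher) for LXR targets and 2 to 6 for PXR and CAR targets. DESeq2 called 5 other nuclear receptors higher, 2 coactivators lower, 14 PPARα targets and 9 PXR and CAR targets. Total counts, which shift the median of all genes by -0.14, gave 2 coactivators lower, 0 higher and 12 PPARα targets. Without a filter beyond 1 count, 2 coactivators were lower, 1 was higher and 8 PXR and CAR targets were called, limma on log2(FPKM + 1) called 1 coactivator higher, and 10 counts in every library left 4 PPARγ targets, since Aqp7, Cidea and Mogat1 were then not tested. Without both sham 2 and VSG 4, 833 genes and 1 receptor were called, Nr1i2 had a log2 fold change of -0.66, and the calls were 0 lower and 1 higher for other nuclear receptors, 0 for coactivators and corepressors, 3 for PPARα targets and 0 higher for LXR targets. The calls of Nr4a3, Rarb, Nr5a2, Ppargc1a, Ncoa6, Crebbp, Ep300, Med1, Hdac3, Acaa1b, Fasn, Lpcat3, Abca1, Cyp3a11 and Slco1a4 were lost there too (adjusted p from 0.0513 to 0.130). Signs reversed for changes that were not called: with total counts for Ppard (-0.020), Nr1h3 (-0.019), Rxra (-0.027) and Rxrb (-0.016), and with libraries left out for Ppard (-0.0090 to 0.19), Rxra (-0.031 to 0.27), Cyp4a14 (-3.40 to 0.24) and Fgf21 (-1.10 to 0.28). Except where fewer genes or libraries entered a fit, the cause was not tested. The order of the members by level was the same in TPM and FPKM for 10 of 10 genes in each group. Among changes of single other genes, 476 kept their side of the threshold, 125 lost it, 19 gained it and 3 reversed.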

Other observations

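Other nuclear receptors of the mouse genome were counted beside the 10 described above. Of 39 genes, 30 passed the filter on low counts, 4 of them fell, 3 rose and 23 did not pass the test, with a median log2 fold change of -0.02. Esr1, the oestrogen receptor α, was at 27.9 to 39.5 CPM in sham and 63.6 to 71.8 CPM in VSG livers (log2 fold change 0.97 ± 0.148, edgeR adjusted p = 0.0141), and only leaving out VSG 6 lost the call (0.0569). Nr5a2, which encodes LRH-1, a monomer-binding regulator of bile acid synthesis, was at 69.9 to 89.0 CPM in sham and 103 to 138 CPM in VSG livers (0.69 ± 0.154, adjusted p = 0.0332). Its call was lost without sham 1 (0.0861), sham 3 (0.139), VSG 4 (0.0741) or VSG 6 (0.112). Nr2c2, which encodes the orphan receptor TR4, had a smaller rise, from 33.2 to 33.9 CPM in sham to 43.7 to 47.0 CPM in VSG livers (0.42 ± 0.079, adjusted p = 0.0219), which missed the threshold without sham 1 (0.0567), sham 2 (0.0708), sham 3 (0.106), VSG 6 (0.0783) or both sham 2 and VSG 4 (0.0775), with scaling by total counts (log2 fold change 0.28, adjusted p = 0.206) and with no filter beyond 1 count (0.0611).

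Rarb, a retinoic acid receptor, was at 6.31 to 9.45 CPM in sham and 2.76 to 4.20 CPM in VSG livers (log2 fold change -1.03 ± 0.246, edgeR adjusted p = 0.0385), and missed the threshold when any library but VSG 5 was left out (0.0730 to 0.107). The immediate early receptors Nr4a2 (-1.33 ± 0.344, adjusted p = 0.0475) and Nr4a3 (-1.74 ± 0.353, adjusted p = 0.0265) were lower at under 2 CPM in every library. The Nr4a2 call was lost without any library but sham 2 (0.0799 to 0.168), with limma-voom (0.0686), limma on log2(FPKM + 1) (0.0754), total counts (0.0503) or no filter beyond 1 count (0.0541), and without both sham 2 and VSG 4 (0.0650), and the Nr4a3 call without any library but VSG 5 (0.0553 to 0.114). Nr3c1, the glucocorticoid receptor, was at 104 to 123 CPM in sham and 123 to 149 CPM in VSG livers (0.27 ± 0.122, adjusted p = 0.169).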
